A study of Mus musculus with 76 samples.

Results

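The endothelial genes Flt1, Kdr, Tek, Tie1, Pecam1, Cdh5, Cldn5, Esam and Edn1, taken by symbol as listed, were followed through bulk RNA-seq libraries of dorsal forebrain taken at embryonic day 16 from embryos of C57BL/6J mice. All 9 were among the 14823 genes of the count table and all 9 passed the filter on low counts, which kept 14339 genes. At the lower dose, Paternal_0.3Cyp, Maternal_0.3Cyp and Both_0.3Cyp held 12 libraries each. At the higher dose, Paternal_10Cyp and Both_10Cyp held 10 each and Maternal_10Cyp held 8, and Ctrl held 12. The names state which parent had received α-cypermethrin, an insecticide of the pyrethroid class, and the dose, 0.3 or 10, for which no unit is labelled. In the Paternal groups the mother received vehicle, in the Maternal groups the father did, and in Ctrl both parents did. Dosing of the parents ran over 28 days and ended before they were mated. It began with 7 days of dosing, followed by 3 cycles of 2 days off and 5 days on. Every group holds libraries of both sexes and of the 2 labelled batches, whose nature the labels do not state. The labels name no litter, so that embryos of 1 litter may count as separate replicates and the p-values may be too small.

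Endothelial cells line the blood vessels that grow into the embryonic cortex from its surface. VEGF-A made by neural progenitors acts on them through the tyrosine kinase KDR (VEGFR2), while FLT1 (VEGFR1) binds VEGF-A tightly with little kinase activity and acts largely as a trap, partly as a secreted form. TEK (TIE2) is the angiopoietin receptor and TIE1 its partner. PECAM1, VE-cadherin (Cdh5), claudin-5 (Cldn5) and ESAM join neighbouring endothelial cells, and claudin-5 is the main tight junction protein of the blood-brain barrier. Endothelin-1 (Edn1) is a peptide that constricts vessels and is made by endothelial cells and, in other settings, by other cells too.

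In these forebrains the VEGF receptor gene Flt1 was lower than in Ctrl in 5 of the 6 exposed groups, Kdr in 2 and Edn1 in all 6, whereas the 6 genes of Tie receptors, adhesion and junctions passed the test in none. Over all genes 3.91 to 40.8% were called in these comparisons, and no Edn1 call remained without Ctrl replicates 11 and 12. The differences of Flt1 and Edn1 passed the test within batch 2, where the Ctrl libraries were high, and not within batch 1; the test of batch by exposure itself did not pass after adjustment over all genes.

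Libraries held 17.7 to 41.4 M counts, with a median of 19.2 M, and 17 of them held over 20 M. Depth differed between groups: Both_10Cyp libraries held 21.2 to 34.0 M, each above every Ctrl library (17.9 to 19.9 M). The dorsal forebrain label was checked on 10 genes, among them Emx1, Tbr1 and Neurod6: all 10 were detected, and their summed level ran from 1273 to 3079 CPM over the exposed groups and from 1683 to 2941 CPM in Ctrl. Against Ctrl, 5 of them rose in Paternal_0.3Cyp, 3 in Maternal_0.3Cyp, 4 in Both_0.3Cyp, 4 in Paternal_10Cyp, 7 in Maternal_10Cyp and 1 in Both_10Cyp. In addition 1 fell in Paternal_0.3Cyp and 1 in Maternal_10Cyp. Of all genes 27.6, 23.7, 22.3, 21.5, 40.8 and 3.91% were called in that order of groups. This list had the larger share in each. CPM are counts in 1 M of the library's TMM-scaled total. The tissue was not a pure one. Summed choroid plexus genes ran from 33.6 to 1322 CPM in exposed libraries and from 21.5 to 928 CPM in Ctrl libraries. Summed meningeal and fibroblast genes ran from 48.0 to 851 CPM in exposed libraries and from 69.1 to 483 CPM in Ctrl libraries. Blood was present in every library, and 5 exposed libraries stood apart by their embryonic globins (Paternal_0.3Cyp replicates 3 and 4, Both_0.3Cyp replicate 12, Both_10Cyp replicates 7 and 8). Since all cells of the tissue were measured together, fewer endothelial cells and less RNA per endothelial cell cannot be told apart in any value below.

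On GRCm38, Flt1 (ENSMUSG00000029648) lies on chromosome 5 from 147561604 to 147726011 and Kdr (ENSMUSG00000062960) on the same chromosome from 75932827 to 75978458, both on the minus strand. Edn1 (ENSMUSG00000021367) lies on chromosome 13 from 42301476 to 42307990 and Cldn5 (ENSMUSG00000041378) on chromosome 16 from 18776847 to 18778262, both on the plus strand. Cldn5 has a short transcript of 1416 bases, against 6895 for Flt1, 5924 for Kdr and 2139 for Edn1, by the GENCODE M21 models. Because Flt1, Kdr and Edn1 carried the differences and Cldn5 was the most abundant gene that carried none, their RefSeq promoters are shown, 250 bases before to 50 after the annotated start on build GRCm38.p6. They are printed in the direction of transcription, with capitals at GGAA or its reverse complement TTCC. This is the core bound by ETS factors, a family long known for its part in endothelial transcription.
Flt1 (chr5:147725962-147726261, minus strand): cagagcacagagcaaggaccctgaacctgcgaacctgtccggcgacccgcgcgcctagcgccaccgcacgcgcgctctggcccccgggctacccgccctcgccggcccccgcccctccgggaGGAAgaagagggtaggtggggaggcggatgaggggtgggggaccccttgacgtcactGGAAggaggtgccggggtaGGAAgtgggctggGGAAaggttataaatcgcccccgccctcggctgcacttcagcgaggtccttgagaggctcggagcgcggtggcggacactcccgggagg
Kdr (chr5:75978406-75978705, minus strand): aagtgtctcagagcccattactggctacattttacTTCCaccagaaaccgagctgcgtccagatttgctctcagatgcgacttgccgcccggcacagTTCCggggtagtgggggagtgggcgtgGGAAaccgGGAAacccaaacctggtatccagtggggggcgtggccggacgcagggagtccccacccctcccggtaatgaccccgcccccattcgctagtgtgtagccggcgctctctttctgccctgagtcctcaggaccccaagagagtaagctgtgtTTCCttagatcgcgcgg
Edn1 (chr13:42301226-42301525, plus strand): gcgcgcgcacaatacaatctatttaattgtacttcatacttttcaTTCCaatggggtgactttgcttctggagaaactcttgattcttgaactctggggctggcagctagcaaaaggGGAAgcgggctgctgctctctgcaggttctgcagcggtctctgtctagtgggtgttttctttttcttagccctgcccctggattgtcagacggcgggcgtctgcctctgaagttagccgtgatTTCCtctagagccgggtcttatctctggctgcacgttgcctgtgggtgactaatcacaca
Cldn5 (chr16:18776597-18776896, plus strand): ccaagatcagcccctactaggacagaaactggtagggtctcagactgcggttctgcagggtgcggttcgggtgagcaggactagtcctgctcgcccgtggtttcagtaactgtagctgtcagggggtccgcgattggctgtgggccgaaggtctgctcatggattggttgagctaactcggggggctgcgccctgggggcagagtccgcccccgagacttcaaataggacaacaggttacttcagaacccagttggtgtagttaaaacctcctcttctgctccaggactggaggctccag
GGAA was searched on both strands and matched 4 times in the window of Flt1, 5 times in Kdr, 3 times in Edn1 and 0 times in Cldn5. Of 32851 promoters of the same length, 96% held GGAA at least once, with 3.52 matches on average, so that the counts of the first 3 genes are ordinary ones. TATAAA was found once in Flt1 (held by 13.6% of promoters). GATAA and ACGTG were each found once in Edn1 (25.4% and 19.6%), and TGANTCA in none of the 4 windows (7.81%), again on both strands and without overlap between motifs. Among the other promoters found in the RefSeq table, Tie1 held 9 GGAA matches, a number that 1.59% of promoters reach, and Tek held 2. A match is a string of letters and no measured binding.

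Per kilobase of transcript, Cldn5 was by far the most abundant of the set, with 58.4 ± 12.04 CPM per kb over all 76 libraries (SD). Esam followed with 8.82 ± 1.33, then Pecam1 with 7.06 ± 0.93, Cdh5 with 6.70 ± 1.97, Kdr with 6.16 ± 1.57 and Tie1 with 5.43 ± 0.89 CPM per kb. Flt1 stood at 3.19 ± 0.92, Tek at 2.65 ± 0.56 and Edn1 at 0.493 ± 0.320 CPM per kb. From Pecam1 through Cdh5 and Kdr to Tie1 no step in this order was larger than the larger SD of the 2 genes it joins, nor was the step from Flt1 to Tek, while those from Cldn5 to Esam, Esam to Pecam1, Tie1 to Flt1 and Tek to Edn1 were larger. Kdr stood above Cdh5 in Ctrl and below Tie1 in Maternal_10Cyp, within the spread in both.

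**Figure D1:**
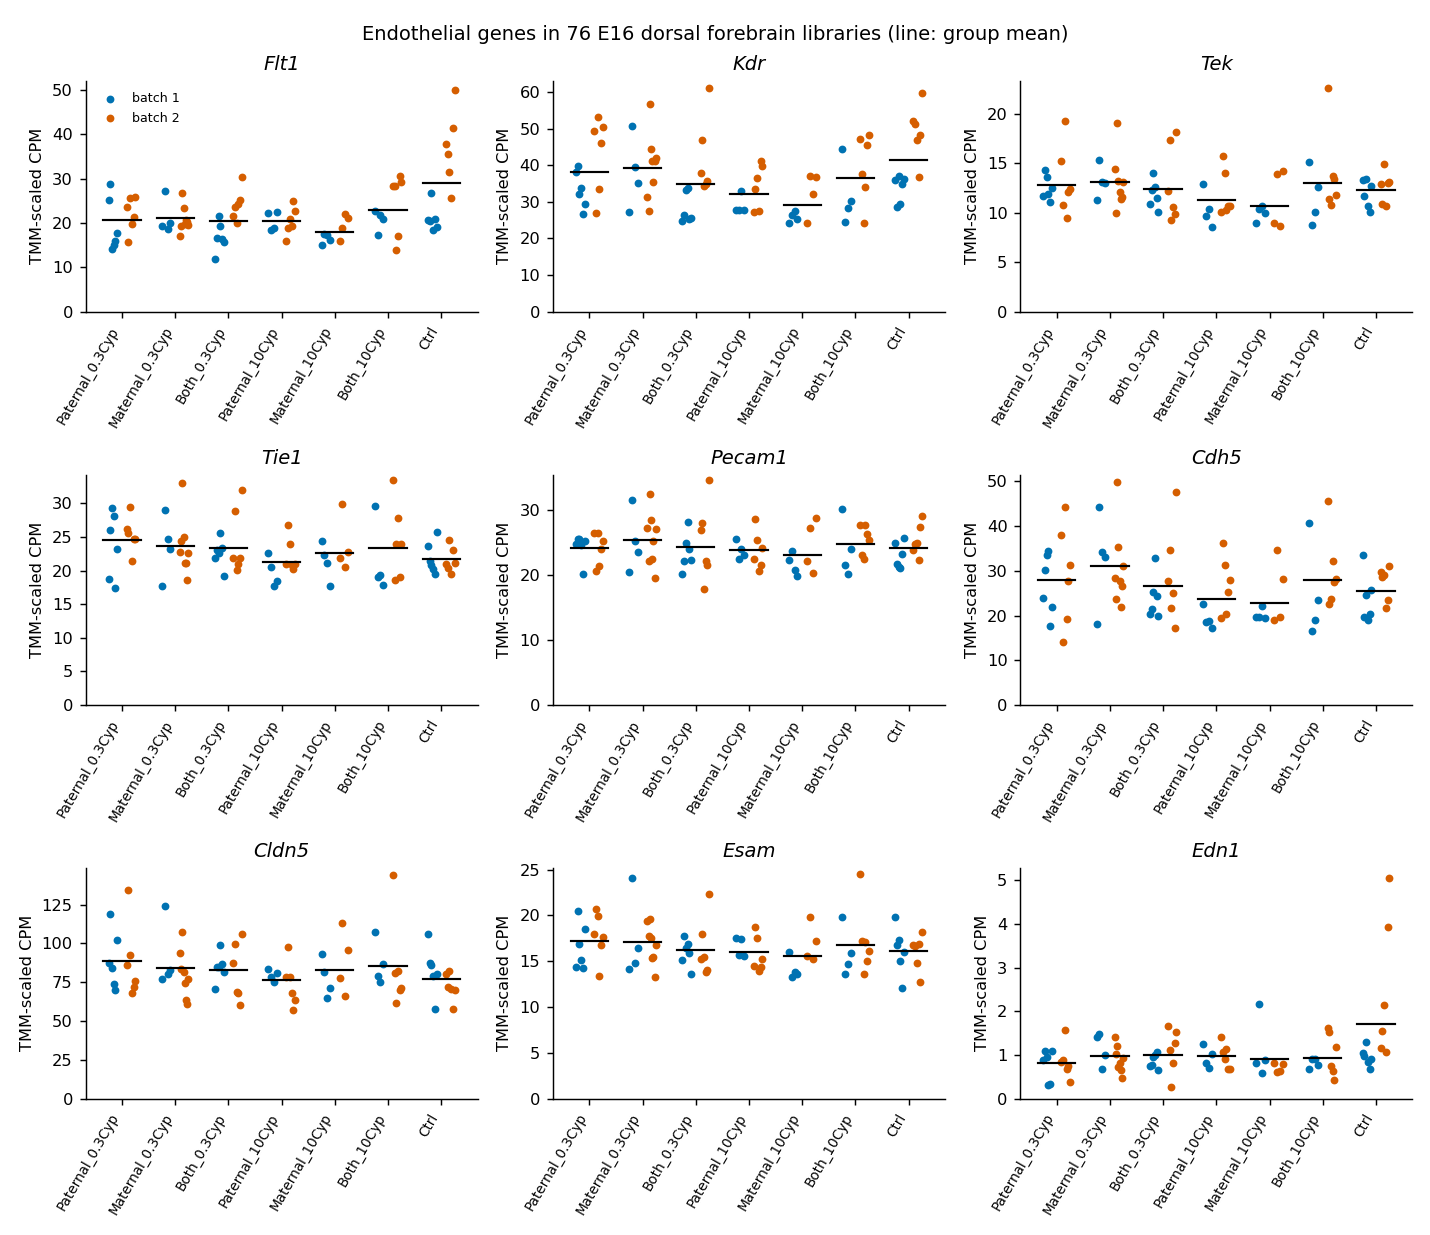
Level of each of the 9 genes (TMM-scaled CPM, linear axis from 0) in each of the 76 libraries, by group, with batch 1 in blue and batch 2 in orange and a line at the group mean. The orange Ctrl points of Flt1 (25.7 to 50.1 CPM) and of Edn1 (1.08 to 5.04 CPM) reach above the exposed groups, while the groups overlap widely for the other genes.

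The VEGF receptors come first. Flt1 ran from 14.1 to 28.7 CPM in Paternal_0.3Cyp (median 20.5), from 17.01 to 27.3 in Maternal_0.3Cyp (median 19.85) and from 11.8 to 30.4 in Both_0.3Cyp (median 20.8). It ran from 16.0 to 24.8 CPM in Paternal_10Cyp (median 20.1), from 15.1 to 22.1 in Maternal_10Cyp (median 17.4) and from 13.9 to 30.5 in Both_10Cyp (median 22.2). In Ctrl it ran from 18.4 to 50.1 CPM with a median of 26.2. All 8 Maternal_10Cyp and all 10 Paternal_10Cyp libraries lay below the Ctrl median, as did 11 of 12 in Paternal_0.3Cyp, 10 of 12 in Maternal_0.3Cyp, 11 of 12 in Both_0.3Cyp and 6 of 10 in Both_10Cyp. The groups overlapped nonetheless, because the lower Ctrl libraries reached into the range of every exposed group. The mean was 18.0 ± 2.53 CPM in Maternal_10Cyp, against 29.0 ± 10.2 CPM in Ctrl (SD, n = 8 and 12).

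Tested with edgeR over all 14339 genes, Flt1 fell in 5 exposed groups. The log2 fold change was -0.45 ± 0.12 in Paternal_0.3Cyp (adjusted p = 0.00633), -0.48 ± 0.12 in Maternal_0.3Cyp (0.00618) and -0.49 ± 0.12 in Both_0.3Cyp (0.00703), where ± is the standard error here and for all fold changes below. It was -0.49 ± 0.13 in Paternal_10Cyp (0.00799) and -0.66 ± 0.14 in Maternal_10Cyp (0.000278). In Both_10Cyp the value of -0.34 ± 0.13 missed the threshold of 0.05 (adjusted p = 0.0814, edgeR). Without Ctrl replicates 11 and 12, chosen after their values were seen, Flt1 was -0.31 in Paternal_0.3Cyp and -0.33 in Paternal_10Cyp and missed the threshold in both (0.0519 and 0.0543), and it passed in the other 3. With only Paternal_0.3Cyp and Ctrl in the fit it was -0.44 and missed the threshold too (0.0867), where 0% of all genes were called. The counts give the sum of all Flt1 transcripts, so the membrane and the secreted form are not separated.

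Kdr, the main signalling receptor for VEGF-A, fell at dose 10 after exposure of 1 parent. It ran from 27.3 to 41.1 CPM in Paternal_10Cyp (median 30.5) and from 24.1 to 37.0 CPM in Maternal_10Cyp (median 27.1), against 28.5 to 59.7 CPM in Ctrl (median 37.0). Below the Ctrl median lay 8 of 10 Paternal_10Cyp and 7 of 8 Maternal_10Cyp libraries. The log2 fold change was -0.37 ± 0.12 in Paternal_10Cyp (edgeR adjusted p = 0.0244) and -0.49 ± 0.13 in Maternal_10Cyp (0.00235). In the other 4 groups it was -0.10 (Paternal_0.3Cyp), -0.10 (Maternal_0.3Cyp), -0.25 (Both_0.3Cyp) and -0.21 (Both_10Cyp), with adjusted p between 0.106 and 0.537. The Both_0.3Cyp value passed without replicate 12 of that group, its highest library at 61.2 CPM (adjusted p = 0.0342), and the Paternal_10Cyp value missed the threshold without any 1 of Ctrl replicates 7 and 12 or Paternal_10Cyp replicates 5 and 8 (adjusted p up to 0.0688). It also missed without Ctrl replicates 11 and 12 together (adjusted p = 0.0745) and in a fit that ignored batch (0.0829).

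Edn1 had the widest relative differences on the lowest counts, 5 to 48 per library in the exposed groups and 13 to 96 in Ctrl. It ran from 0.317 to 1.58 CPM in Paternal_0.3Cyp (median 0.859), from 0.476 to 1.47 in Maternal_0.3Cyp (median 0.954) and from 0.269 to 1.66 in Both_0.3Cyp (median 0.970). It ran from 0.667 to 1.40 CPM in Paternal_10Cyp (median 0.965), from 0.577 to 2.16 in Maternal_10Cyp (median 0.794) and from 0.428 to 1.61 in Both_10Cyp (median 0.839). In Ctrl it ran from 0.668 to 5.04 CPM with a median of 1.12. Ctrl was thus uneven: replicate 12 held 5.04 and replicate 11 held 3.93 CPM, while 9 of the 12 Ctrl libraries lay below the Ctrl mean of 1.72 CPM.

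Edn1 fell in all 6 exposed groups in the edgeR fit. The log2 fold change was -1.03 ± 0.26 in Paternal_0.3Cyp (adjusted p = 0.00476), -0.80 ± 0.26 in Maternal_0.3Cyp (0.0204) and -0.78 ± 0.26 in Both_0.3Cyp (0.0259). It was -0.78 ± 0.27 in Paternal_10Cyp (0.0327), -0.82 ± 0.30 in Maternal_10Cyp (0.0219) and -0.87 ± 0.27 in Both_10Cyp (0.0469). Without Ctrl replicates 11 and 12, a choice made after seeing their values, these changes lay between -0.50 and -0.21, and none passed (lowest adjusted p = 0.117, edgeR). Leaving out replicate 11 or 12 singly ended the call in every group other than Paternal_0.3Cyp. The Both_10Cyp call was the weakest, kept in 3 of 14 other settings and lost without any 1 of 11 of the 22 libraries compared. The Paternal_10Cyp call was lost with limma (adjusted p = 0.0942) and without any 1 of its own replicates 2, 6 and 10, and that of Maternal_10Cyp without its replicate 6 or 7 and with only the groups compared (0.0963), which also ended that of Paternal_0.3Cyp (0.0883).

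The Tie receptor genes passed the test in no group. Tek averaged 10.7 to 13.1 CPM over the exposed groups, against 12.3 ± 1.45 CPM in Ctrl (SD, n = 12), with log2 fold changes from -0.19 to 0.08 (smallest edgeR adjusted p = 0.213). Tie1 averaged 21.3 to 24.6 CPM over the exposed groups, against 21.8 ± 2.01 CPM in Ctrl, with log2 fold changes from -0.03 to 0.18 (smallest adjusted p = 0.132). With offsets for GC content and transcript length, a setting added after the data were seen, Tie1 was called as higher in Paternal_0.3Cyp.

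The adhesion and junction genes did not pass either. Pecam1 averaged 23.1 to 25.4 CPM over the exposed groups, against 24.2 ± 2.48 CPM in Ctrl, and its log2 fold changes, -0.06 to 0.06, were the smallest of the set. Cdh5 averaged 22.8 to 31.2 CPM, against 25.6 ± 4.83 CPM in Ctrl, with changes from -0.17 to 0.26. Cldn5, the barrier claudin, averaged 76.2 to 88.8 CPM, against 77.4 ± 13.3 CPM in Ctrl, with changes from 0.01 to 0.20. Esam averaged 15.6 to 17.2 CPM, against 16.1 ± 2.18 CPM in Ctrl, with changes from -0.05 to 0.10. The precision differed between these genes: the 95% interval of the Maternal_10Cyp difference on the log2 scale ran from -0.23 to 0.11 for Pecam1 and from -0.52 to 0.17 for Cdh5.

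**Figure D2:**
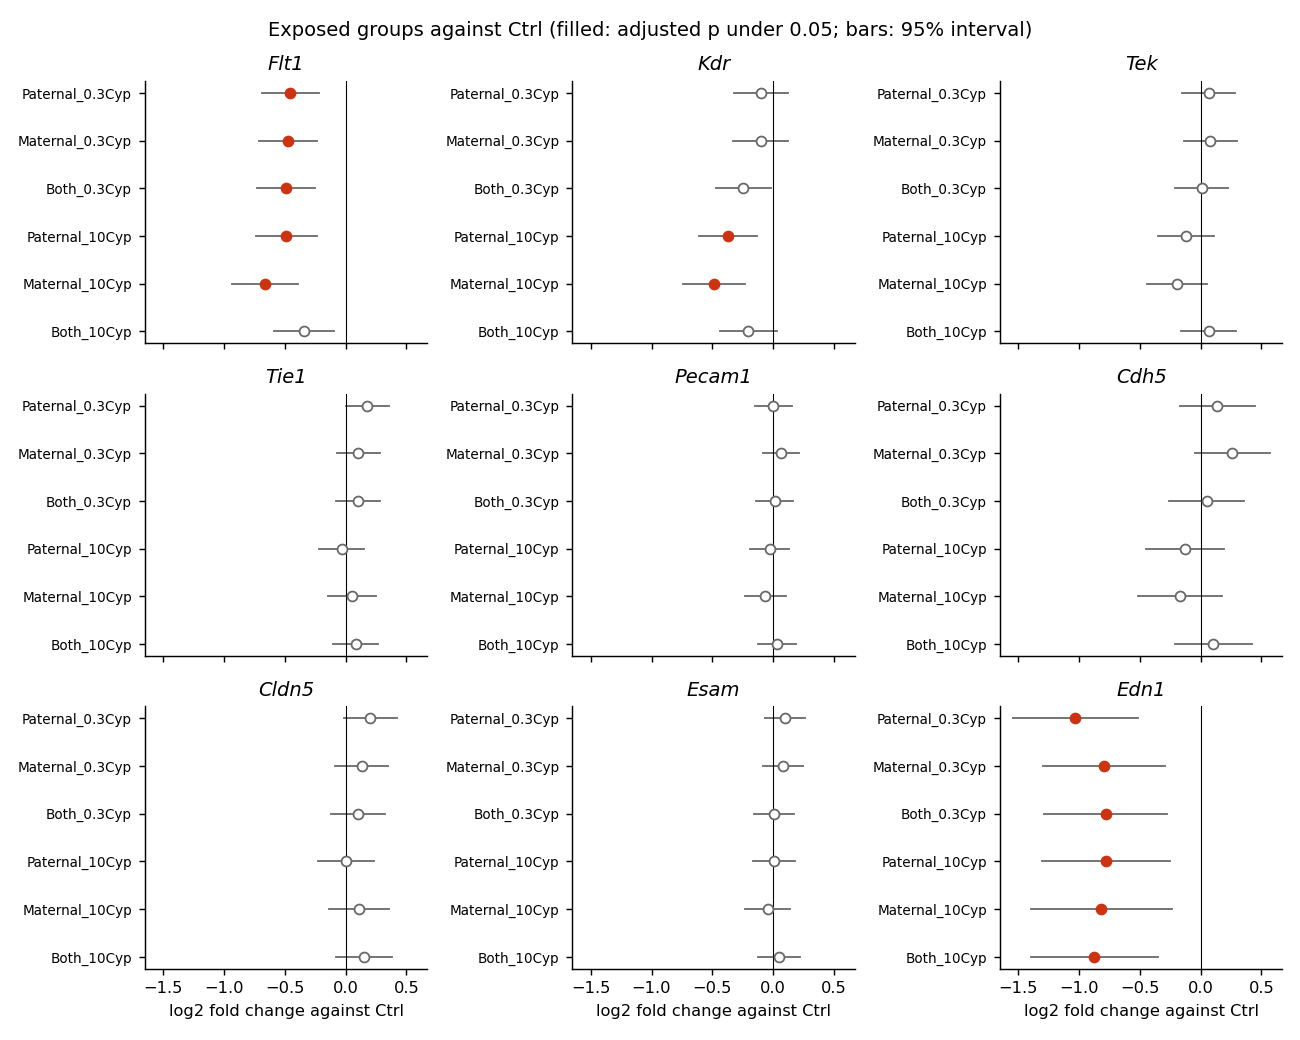
Log2 fold change of each gene in each exposed group against Ctrl, with its 95% interval; filled points have an edgeR adjusted p under 0.05. Flt1 and Edn1 lie left of 0 in every group and Kdr most at dose 10 of 1 parent. Pecam1, Tek, Tie1, Cdh5 and Esam scatter around 0, and Cldn5 lies from 0.01 to 0.20 with no filled point.

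Counted over the set, 2 of 9 genes fell in Paternal_0.3Cyp, where 27.6% of all genes tested were called in either direction and 12.2% as lower. The same count was 2 of 9 in Maternal_0.3Cyp (23.7% and 12.8%) and in Both_0.3Cyp (22.3% and 11.8%). It was 3 of 9 in Paternal_10Cyp (21.5% and 10.8%), 3 of 9 in Maternal_10Cyp (40.8% and 20.4%) and 1 of 9 in Both_10Cyp (3.91% and 1.58%), and no member rose in any group. These 6 comparisons share the 12 Ctrl libraries, so a high Ctrl library lowers all of them at once. In the joint test of the 6 comparisons 3 of 9 passed, Flt1 (adjusted p = 0.00392), Edn1 (0.0243) and Kdr (0.0271), beside 21.7% of all genes. Beside shares of that size, 2 or 3 of 9 is no result about the set as a whole. The median log2 fold change of the 9 genes lay between -0.17 in Maternal_10Cyp and 0.08 in Maternal_0.3Cyp, against -0.01 and 0.01 for all genes tested in those comparisons.

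Split by batch, Flt1, Edn1 and Kdr were called in batch 2 and not in batch 1. Flt1 in batch 1 averaged 16.5 to 21.3 CPM over the exposed groups, against 21.1 ± 2.94 CPM in Ctrl (SD, n = 6). In batch 2 it averaged 19.5 to 24.6 CPM over the exposed groups, against 37.0 ± 8.38 CPM in Ctrl (n = 6). The batches thus lay farther apart in Ctrl than in the exposed groups. Within batch 1 the log2 fold change of Flt1 lay between -0.35 and 0.01 and passed in no group (unadjusted p = 0.0467 in Both_0.3Cyp, the only one under 0.05), where 0 to 0.133% of all genes were called (0.00697% in Paternal_0.3Cyp and in Paternal_10Cyp). Within batch 2 it lay between -0.92 and -0.59 and passed in all 6 (largest edgeR adjusted p = 0.0156). In that batch 16.6% of all genes were called in Paternal_0.3Cyp, 21.1% in Maternal_0.3Cyp, 10.9% in Both_0.3Cyp, 18.6% in Paternal_10Cyp, 33.2% in Maternal_10Cyp and 18.4% in Both_10Cyp.

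Edn1 showed the same split, with 0.778 to 1.14 CPM in batch 1 and 0.706 to 1.11 CPM in batch 2 over the exposed groups, against 0.952 ± 0.207 and 2.48 ± 1.63 CPM in Ctrl. Its log2 fold change lay between -0.30 and 0.24 in batch 1, with no call, and between -1.77 and -1.17 in batch 2, with calls in all 6 groups (largest adjusted p = 0.0216). Kdr averaged 25.9 to 38.2 CPM in batch 1 and 32.5 to 43.3 CPM in batch 2 over the exposed groups, against 33.7 ± 3.76 and 49.2 ± 7.52 CPM in Ctrl. It was called in batch 2 in Paternal_10Cyp (-0.51 ± 0.16, adjusted p = 0.0207) and Maternal_10Cyp (-0.59 ± 0.18, 0.011) and in no group in batch 1. There its changes were -0.20 in Paternal_10Cyp and -0.38 ± 0.18 in Maternal_10Cyp (unadjusted p = 0.0443, adjusted p = 0.218), and in Both_0.3Cyp it was -0.26 in batch 1 and -0.23 in batch 2, called in neither.

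Within Ctrl itself, batch 2 exceeded batch 1 by 0.81 ± 0.16 on the log2 scale for Flt1 (edgeR adjusted p = 0.00354) and by 1.34 ± 0.33 for Edn1 (0.0274), beside 2.09% of all genes called between the Ctrl batches. For Kdr the difference was 0.54 ± 0.16 (0.0559), and for the other 6 genes it lay between -0.22 and 0.19. Between the batches of each exposed group 0 of 9 genes passed, beside 1.66% of all genes in Paternal_0.3Cyp, 0.153% in Paternal_10Cyp and 0% in the other 4. At an unadjusted p under 0.05 stood Flt1 and Kdr in Both_0.3Cyp, by 0.51 ± 0.16 (adjusted p = 0.14) and 0.56 ± 0.16 (0.117), and Kdr in Paternal_0.3Cyp, by 0.38 ± 0.16 (0.193). The difference of the mean exposed effect between batches was -0.62 ± 0.17 for Flt1 (unadjusted p = 0.000566, adjusted p = 0.247) and -1.39 ± 0.37 for Edn1 (unadjusted p = 0.000323, adjusted p = 0.232), beside 0.0349% of all genes called. For Kdr it was -0.23 ± 0.18 (unadjusted p = 0.197, adjusted p = 0.728). A joint test of batch by exposure called no gene of the 14339 (0%; edgeR unadjusted p = 0.00562 for Flt1 and 0.0102 for Edn1). The interaction therefore did not pass after adjustment. With 2 surrogate variables added, no member passed in any of the 6 comparisons, beside 0 to 3.12% of all genes, and Flt1 then lay between -0.33 and -0.28 in the 5 groups.

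**Figure D3:**
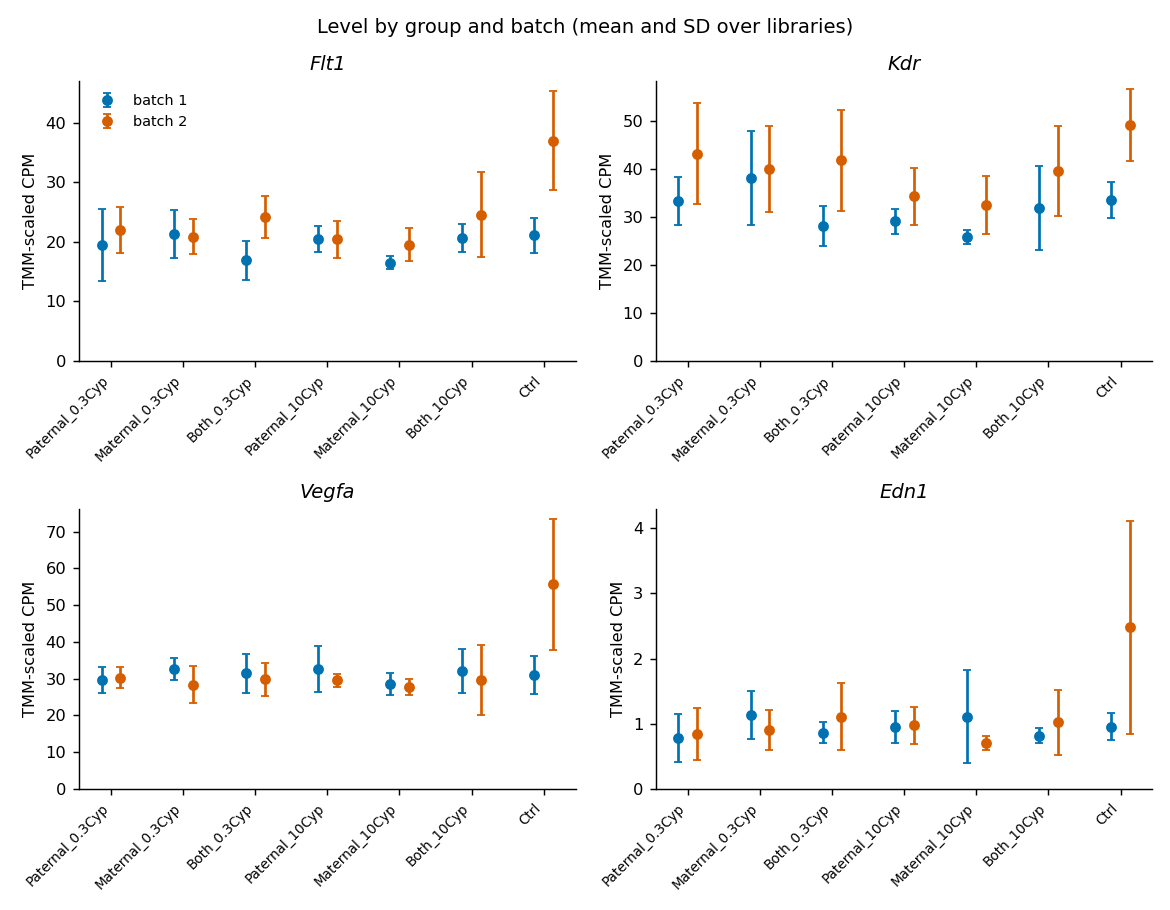
Mean level and SD (TMM-scaled CPM, linear axis from 0) of Flt1, Kdr, Vegfa and Edn1 in each group, with batch 1 in blue and batch 2 in orange. Ctrl in batch 2 stands above all other points for Flt1 (37.0 CPM), Kdr (49.2 CPM), Vegfa (55.7 CPM) and Edn1 (2.48 CPM). Ctrl in batch 1 lies among the exposed groups.

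Dose, parent and sex made no called difference in the set. Dose 10 against 0.3 called 0 of 9 genes after exposure of the father (0.0628% of all genes called), of the mother (0%) or of both (0.00697%), and the largest size there was that of Cdh5, -0.43 ± 0.18, in Maternal_10Cyp against Maternal_0.3Cyp (edgeR adjusted p = 0.533). Exposure of the mother against that of the father called 0 of 9 at dose 0.3 (0.00697%) and at dose 10 (0%). Kdr was -0.27 ± 0.12 in Paternal_10Cyp against Paternal_0.3Cyp (0.488) and -0.39 ± 0.13 in Maternal_10Cyp against Maternal_0.3Cyp (0.475). That Kdr passed at dose 10 and not at 0.3 is therefore no shown difference between doses. Male against female embryos called 0 of 9 (0.0907%), with log2 differences from 0.01 to 0.23, and sex by exposure 0 of 9 (0%). DESeq2 and limma also called 0 of 9 in each of these comparisons. At an unadjusted p under 0.05 edgeR counted 2 (Kdr and Tie1) between the doses of the father, 3 (Kdr, Cdh5 and Tek) between those of the mother, 1 (Esam) between the sexes and 0 in the other 4.

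Exposure of both parents was also set against the sum of the effects of each parent. At dose 10 that difference was 0.81 ± 0.19 for Flt1 (edgeR adjusted p = 0.0031) and 0.66 ± 0.18 for Kdr (0.00748), so 2 of 9 passed, beside 27.2% of all genes. The differences in Both_10Cyp were thus smaller than those sums. Ctrl enters this contrast with its full weight. In batch 1 alone it was 0.33 for Flt1 and 0.51 for Kdr, neither passing, and in batch 2 alone 1.19 for Flt1 (0.0144) and 0.78 for Kdr (0.068). With 2 surrogate variables neither passed (adjusted p = 0.116 and 0.0985). At dose 0.3 no member passed (0% of all genes), with 0.44 ± 0.17 for Flt1 and 1.05 ± 0.37 for Edn1 (adjusted p = 0.115 and 0.0934).

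How far the 9 genes moved together was read from 76 libraries after group, batch and sex were taken out of log2 CPM. Pearson r over the 36 pairs had a median of 0.54, and the pairs share the libraries and their cell mixture. Cldn5 and Esam were closest (0.85), then Cdh5 and Tek (0.84) and Pecam1 and Cdh5 (0.78). Flt1 went with Kdr (0.76) and hardly with Tie1 (0.05) or Cldn5 (0.14). Against the mean of the other 8, Tek had 0.84, Pecam1 0.83 and Cdh5 0.82, at one end, and Flt1 0.44 and Edn1 0.35 at the other. The 2 genes with falls in most groups thus had the lowest of these values. Edn1 had the lowest counts of the set, and count noise may lower its r. Group and batch were taken out as separate terms, so the Ctrl excess in batch 2 of Flt1 and Edn1 stays in the residuals. A low r is therefore not independent of the falls, and a link between them was not tested.

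**Figure D4:**
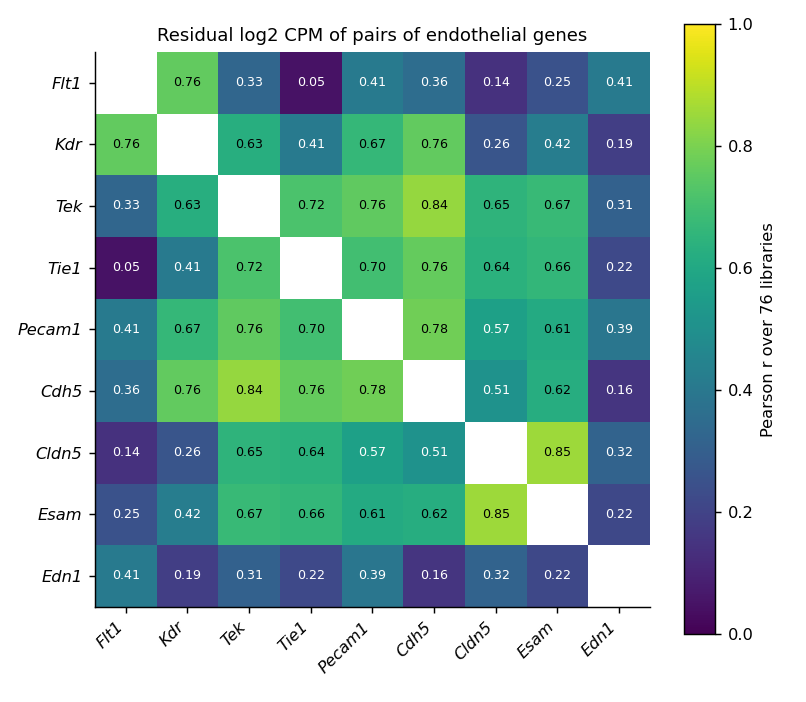
Pearson r of residual log2 CPM over 76 libraries for each pair of the 9 genes, from 0 (dark) to 1 (bright). The Cldn5 and Esam cell is highest at 0.85, and the rows of Flt1 and Edn1 are darker than the others except for Flt1 with Kdr (0.76).

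Among the 10 genes most like the set's mean residual over the 76 libraries were Vtn (r = 0.91), Cavin1, Igf2, Cxcl12, Enpp1, Adgra2, Bgn, Nid2 and Itih5 (0.89). Vtn (vitronectin) is a product of brain pericytes, Cavin1 shapes caveolae, Cxcl12 is a chemokine, Adgra2 (GPR124) is a coreceptor of vascular Wnt signalling and Nid2 and Bgn are matrix proteins. Leaving out the 2 libraries farthest from the median left r at 0.90 for Vtn. Further down, the first gene of the meningeal and fibroblast list was Tbx18 (r = 0.88, rank 16), with Col1a2 and Col3a1 at 0.87. The first of the other endothelial genes was Clec14a (0.88, rank 17). The mean of the set thus moved with meningeal genes too. In the libraries with the highest sums of the 9 genes, Both_10Cyp replicate 5 (376 CPM) and Both_0.3Cyp replicate 12 (354 CPM), the sums of 29 other endothelial genes were also the highest of their groups, at 448 and 444 CPM. The mean sum of the 9 genes was 226 to 256 CPM over the exposed groups, against 249 ± 29.2 CPM in Ctrl.

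Relative to the summed level of Cldn5, Pecam1, Cdh5, Tek, Tie1 and Esam in the same library, a ratio chosen after the values were seen and therefore not tested, Flt1 averaged -3.29 to -3.07 on the log2 scale over the exposed groups, against -2.68 ± 0.51 in Ctrl.

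Other genes of the pathway were read from lists. Of the 22 genes of VEGF, angiopoietin and Notch signalling, Vegfa, the ligand of both receptors, fell in all 6 groups. Its log2 fold change was -0.60 ± 0.14 in Maternal_10Cyp (edgeR adjusted p = 0.000735) and lay between -0.54 and -0.48 in the other 5 (largest adjusted p = 0.0276). Vegfa averaged 28.2 ± 2.44 CPM in Maternal_10Cyp and 29.7 to 30.8 CPM in the other exposed groups, against 43.3 ± 18.0 CPM in Ctrl. It too divided by batch: Ctrl held 31.0 ± 5.09 CPM in batch 1 and 55.7 ± 17.9 CPM in batch 2, and the log2 fold change lay between -0.12 and 0.09 in batch 1 and between -0.99 and -0.87 in batch 2. Of the same list Nrp2, a semaphorin and VEGF coreceptor, fell in Paternal_10Cyp (-0.40, adjusted p = 0.014) and Maternal_10Cyp (-0.42, 0.00571). Vegfb rose by 0.12 in Maternal_10Cyp (0.0193) and Notch4, an endothelial Notch receptor, by 0.25 in Paternal_0.3Cyp (0.00793). In all, 1, 3, 1, 3, 5 and 1 genes of this list fell and 4, 1, 0, 0, 2 and 0 rose in Paternal_0.3Cyp, Maternal_0.3Cyp, Both_0.3Cyp, Paternal_10Cyp, Maternal_10Cyp and Both_10Cyp, with list medians between -0.10 and 0.02. Over all genes 27.6, 23.7, 22.3, 21.5, 40.8 and 3.91% were called in these groups in either direction, a larger share than that of this list in every group other than Both_10Cyp (1 of 22). Called as lower were 12.2, 12.8, 11.8, 10.8, 20.4 and 1.58% of all genes. By falls alone this list had the larger share in Maternal_0.3Cyp, Paternal_10Cyp, Maternal_10Cyp and Both_10Cyp. By rises alone it had the larger share in Paternal_0.3Cyp, where 27.6% of all genes were called, 12.2% as lower and the rest as higher. Within batch 1 alone no gene named here or below from the vessel, barrier, endothelin, pericyte and meningeal lists was called in any group.

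Of 29 other endothelial genes, 3, 2, 2, 5, 5 and 0 fell in the same order of groups. In that order 1, 1, 0, 0, 0 and 0 rose, with list medians between -0.10 and 0.10. In either direction that was a smaller share than that of all genes in each group. By falls alone it was a larger one in Paternal_10Cyp, 5 of 29 beside 10.8% of all genes called as lower. Vwf, the von Willebrand factor stored in endothelial granules, fell in 5 groups, most in Maternal_10Cyp (log2 fold change -0.85 ± 0.19, edgeR adjusted p = 0.000557), and the -0.49 of Both_10Cyp missed the threshold (0.0734). Ptprb, the phosphatase VE-PTP that acts on TIE2 and VE-cadherin, fell in Maternal_10Cyp (-0.68 ± 0.15, 0.000401), Paternal_10Cyp (-0.54) and Paternal_0.3Cyp (-0.35). In Ctrl it held 10.1 ± 1.02 CPM in batch 1 and 14.3 ± 1.47 CPM in batch 2; in Maternal_10Cyp its change was -0.51 in batch 1 (adjusted p = 0.173) and -0.85 in batch 2 (0.00275), and in Paternal_0.3Cyp it was called in neither batch (0.452 and 0.0813). Adgrl4 fell by 0.20 to 0.24 in the 5 groups other than Both_10Cyp, and Sox18 passed in none. Vwf in Ctrl was 12.9 ± 2.06 CPM in batch 1 and 24.1 ± 6.60 CPM in batch 2, so the Ctrl batches differed for this gene as well.

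Of 34 genes of the blood-brain barrier and its Wnt input, 1, 2, 1, 1, 5 and 0 fell and 3, 1, 0, 0, 2 and 0 rose in that order, again a smaller share than that of all genes in each group. Slco1c1, a thyroid hormone transporter, fell in 4 groups, most in Maternal_10Cyp (-0.53, edgeR adjusted p = 0.00475), and Abcb1a, the efflux pump P-glycoprotein, fell in 3, with -0.57 there (0.00167). Lef1, a Wnt effector also used by cortical cells, rose in Paternal_0.3Cyp (0.55, 0.00506), and Axin2 passed in no group. The 5 tested partners of endothelin-1 passed in no comparison with Ctrl: log2 fold changes lay between -0.24 and -0.08 for the receptor gene Ednra, between -0.15 and -0.08 for Ednrb, between -0.19 and 0.02 for the converting enzyme gene Ece1, between -0.18 and -0.06 for Ece2 and between -0.56 and 0.47 for Edn3. Ece1 did pass in the comparison of both parents with the sum of each at dose 10 (0.37 ± 0.13, edgeR adjusted p = 0.0281). The 3 genes induced by blood flow, Klf2, Klf4 and Thbd, passed in no comparison with Ctrl either.

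Cells beside the endothelium showed the following. Of 14 pericyte and smooth muscle genes, 1, 1, 1, 2, 3 and 0 fell and none rose. In either direction that was a smaller share than that of all genes in each group. By falls alone it was a larger one in Paternal_10Cyp and Maternal_10Cyp, where 10.8 and 20.4% of all genes were called as lower. Cspg4 (NG2), which oligodendrocyte precursors also express, fell in 5 groups, to 5.70 ± 0.98 CPM in Maternal_10Cyp, against 12.02 ± 4.76 CPM in Ctrl (edgeR adjusted p = 6.81e-05). In Ctrl it held 7.97 ± 1.25 CPM in batch 1 and 16.1 ± 2.97 CPM in batch 2, and its Maternal_10Cyp change was -0.55 in batch 1 (adjusted p = 0.167) and -1.42 in batch 2 (6.63e-05). Pdgfrb, the pericyte PDGF receptor, had a log2 fold change of -0.33 in Maternal_10Cyp. The summed level of the 14 genes averaged 216 to 242 CPM over the exposed groups, against 244 ± 31.9 CPM in Ctrl. Of 12 meningeal and fibroblast genes, Pdgfra alone passed, lower in 4 groups, again a gene of oligodendrocyte precursors too; their sum averaged 117 to 246 CPM, against 212 ± 142 CPM in Ctrl. Of 15 microglial and macrophage genes, 0 fell and 1, 3, 0, 1, 0 and 0 rose, and their sum averaged 106 to 119 CPM, against 108 ± 9.85 CPM in Ctrl. Of 9 erythroid genes 7, 2, 2, 3, 0 and 1 rose, with sums of 1802 to 2055 CPM, against 1613 ± 221 CPM. Of 7 choroid plexus genes 1 rose in Paternal_0.3Cyp and no other passed, and of 4 platelet genes none passed. Beside these counts 27.6, 23.7, 22.3, 21.5, 40.8 and 3.91% of all genes were called in either direction, in the same order of groups. The erythroid list had a larger share than that in Paternal_0.3Cyp, Paternal_10Cyp and Both_10Cyp. In either direction the meningeal, microglial, choroid plexus and platelet lists had a larger share in no group. By rises alone the microglial list had a larger share than all genes in Maternal_0.3Cyp, and the erythroid list also in Maternal_0.3Cyp and Both_0.3Cyp. In those groups 12.8 and 11.8% of all genes were called as lower and the rest of the called ones as higher. The part of these cell types in the differences of Flt1, Kdr and Edn1 was not tested. The embryonic-to-adult globin ratio, which does not measure the amount of blood, was entered in the edgeR fit as a covariate. Flt1 then missed the threshold at dose 0.3 (-0.41 to -0.37, adjusted p 0.0556 to 0.0868, beside 0.0697 to 1.19% of all genes called). It passed in Paternal_10Cyp and Maternal_10Cyp. Summed embryonic globins had a median of 0.185 CPM in Ctrl and of 0.736 to 1.38 CPM over the exposed groups. The covariate thus overlapped with exposure, and that fit cannot separate the 2.

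Transcript length moved with the comparisons too. In Maternal_10Cyp against Ctrl the median log2 fold change was -0.19 for the 25% of genes with the longest transcripts (4751 bases or more) and 0.15 for the 25% with the shortest (2088 or fewer), and in the other 5 groups it was -0.13 to -0.08 and 0.09 to 0.14. Flt1 and Kdr belong to the longest class, Esam and Cldn5 to the shortest, and the other 5 genes lie between. With offsets for GC content and transcript length, Flt1 was -0.43 in Maternal_10Cyp (adjusted p = 0.00592, edgeR) and -0.33 in Paternal_10Cyp, where it missed the threshold (0.0556). Kdr was then -0.30 in Maternal_10Cyp (0.0264) and -0.25 in Paternal_10Cyp (0.0934), and Edn1 lay between -1.10 and -0.83.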

How the data were processed

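Expected counts were deposited by the authors, as whole numbers per gene, for all 76 libraries; per the submitters' processing notes Trim Galore 0.5.0, Salmon 1.10.1 and mm10 were used. The annotation, the summing to genes and the rounding are not given in the sources used here, and the whole numbers were tested as deposited. Gene symbols were found by ID for 14810 of 14823 genes. Members and lists were chosen with earlier results of these data known.

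edgeR 4.0.16 in R 4.3.3 was run with filterByExpr (14339 genes kept), TMM scaling and robust quasi-likelihood tests in 1 model of group, batch and sex over the 76 libraries, with Benjamini-Hochberg adjustment over all genes and calls at 0.05, 2-sided. Within-batch values come from a fit with a mean for each group and batch. All 9 members were named; of every other list the 4 genes of lowest joint p, all endothelin genes, and further genes only as counts. A gene of the dorsal forebrain list and a gene among those most like the members are not reported here. Library totals were 17.7 to 41.4 M, so that 1 CPM is about 19.2 counts at the median depth. The 95% intervals are for the difference between groups, by a normal approximation from its standard error. They may be too narrow where embryos share a litter. No 2 libraries held the same values. The method was tested on simulated data.

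Alternatives were DESeq2 size factors, DESeq2 1.42.0, limma 3.58.1 voom, no filter, 2 surrogate variables (sva 3.50.0), no batch term, each batch alone, only the groups compared, globin settings, the replicate number as a block and each library left out. GC and length offsets and leaving out Ctrl replicates 11 and 12 were added after seeing the data.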

Additional observations from a re-analysis of the deposited data

Results flagged for a closer look

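The Flt1 and Kdr differences of Both_10Cyp from Ctrl were smaller than the sum of those of Paternal_10Cyp and Maternal_10Cyp, by 0.81 for Flt1 and 0.66 for Kdr on the log2 scale (edgeR adjusted p = 0.0031 and 0.00748), and each is a tested difference between groups. In the same comparison 27.2% of all genes were called. Neither gene passed in batch 1 alone (0.33 and 0.51) or with 2 surrogate variables, and Kdr missed the threshold in batch 2 alone (adjusted p = 0.068). Replicate 5 of Both_10Cyp held 22.6 CPM of Tek, far above the other 9 libraries of its group (median of the group 12.2 CPM). Replicate 2 of Maternal_10Cyp held 2.16 CPM of Edn1, far above the other 7 (median of the group 0.794 CPM). These 2 samples stand out among 27 groups of 8 to 10 libraries tested for a single distant sample, of which chance marks about 1 in 20.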

How the results depend on the processing

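The count of members called changed with the setting. With 2 surrogate variables or in batch 1 alone it was 0 in the joint test, in all 6 comparisons with Ctrl and in the non-additivity at dose 10. Few genes were called at all in these settings: over the 8 tests 0 to 3.12% of all genes with the surrogate variables and 0 to 3.45% in batch 1 alone. With the globin covariate it was 0 in the joint test, Paternal_0.3Cyp, Maternal_0.3Cyp, Both_0.3Cyp and Both_10Cyp, beside 4.03, 0.307, 1.19, 0.0697 and 0.921% of all genes. Without Ctrl replicates 11 and 12 it was 0 in the joint test, Paternal_0.3Cyp, Paternal_10Cyp and Both_10Cyp (12.6, 21.9, 16.3 and 0.97% of all genes) and 1 in Maternal_0.3Cyp and Both_0.3Cyp (17.8 and 15.3%). With only the groups compared it was 0 in Paternal_0.3Cyp (0%) and Both_10Cyp (4.03%), and with GC and length offsets 1 in Paternal_10Cyp (7.75%) and 0 in Both_10Cyp (1.22%). In Both_10Cyp the single call was also lost (0) with DESeq2 (7.21%), with limma (6.57%), without the batch term (0.384%) and when the 5 high embryonic-globin libraries were left out (0.0699%), while batch 2 alone gave 2 (14.9%); batch 2 alone gave 1 in the non-additivity at dose 10 (3.84%).

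In batch 1 alone the log2 fold change turned for Flt1 in Maternal_0.3Cyp (0.022) and for Edn1 in Maternal_0.3Cyp (0.26), Paternal_10Cyp (4.92e-05) and Maternal_10Cyp (0.23). Without each library in turn the counts ran from 2 to 2 in Paternal_0.3Cyp, 1 to 2 in Maternal_0.3Cyp, 1 to 3 in Both_0.3Cyp and Paternal_10Cyp, 2 to 3 in Maternal_10Cyp and 0 to 2 in Both_10Cyp, where Edn1 was lost without any of 11 of the 22 libraries. The share of all genes called ran in these fits from 15.8 to 34.6%, 15.1 to 28.6%, 14.2 to 28%, 11.9 to 26.8%, 35.2 to 43.5% and 0.202 to 11.3% in the same order. No single library ended a call of Flt1 in its 5 groups, or of Kdr in Maternal_10Cyp; without Ctrl replicate 6 Flt1 was also called in Both_10Cyp. The causes were not tested.

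With the replicate number as a block the joint test called 1 member (Flt1; 19.3% of all genes), Paternal_10Cyp 1 (Flt1; 16.6%) and Both_10Cyp 0 (2.39%), and other counts stayed within 1.5 times. The numbers did not pair libraries across groups: same-numbered libraries had a mean correlation of 0.00126 in their deviations (lowest -0.43), and 3 of 76 matched their own number best. Edn1, with 5 to 96 counts per library, has the least precise values.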
